A study of Mus musculus with 24 samples.

Results

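The mitotic cell cycle and replication genes are 37 genes chosen by symbol from the 78298 rows of the granulosa cell and oocyte count tables. Each symbol was found once in each table. They were divided by role into 14 S phase genes (Mcm2 to Mcm7, Pcna, Ccne1, Ccne2, Cdc6, Cdt1, Rrm1, Rrm2 and Tyms), 16 G2/M genes (Mki67, Top2a, Ccna2, Ccnb2, Bub1, Bub1b, Aurka, Aurkb, Plk1, Birc5, Cenpa, Cenpe, Cenpf, Kif11, Kif20a and Tpx2) and 7 G1 regulators (the D-type cyclins Ccnd1, Ccnd2 and Ccnd3, with Cdkn1b, Cdk2, Cdk4 and E2f1). All 37 passed the filter on low counts in both cell types. The lowest count of any member in any library was 16, for Ccnd1 in oocytes, and 35 members in granulosa cells and 34 in oocytes had at least 100 counts in every library.

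The libraries came from ovarian follicles of WT (wild-type) mice, embedded in alginate, a seaweed polysaccharide gel, and cultured to day 3. All groups shared medium with 10% serum, an insulin, transferrin and selenium supplement and FSH, the hormone that drives granulosa cell proliferation, at 50 mIU/ml. The 3 conditions were control medium, 20 µM blebbistatin, an inhibitor of the motor protein myosin II, and dextran at 10 kPa, a polymer that draws water osmotically and so compresses a follicle. From follicles larger than 180 µm, oocytes (pooled 1 to 2 a library) and granulosa cells (pools of many cells a library) were collected by mechanical separation, with 4 libraries in each of the 6 groups. The labels name the replicates biological but not the animals or cultures behind them, nor a solvent in the control medium, so p-values measure the spread between these libraries. Total counts ran from 16432256 to 22430951 in granulosa cell libraries and from 14244057 to 18399462 in oocyte libraries.

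A dividing cell first loads the MCM helicase on its DNA with the help of CDC6 and CDT1, then copies the DNA under cyclin E and CDK2, with PCNA clamping the polymerases and ribonucleotide reductase and thymidylate synthase supplying nucleotides. Cyclin A and cyclin B then carry it through G2 into mitosis. There Aurora kinases, PLK1, kinesins, kinetochore proteins and the BUB1 checkpoint proteins act in the separation of the chromosomes. Granulosa cells of growing follicles divide by this cycle, with cyclin D2 as their FSH-responsive D-type cyclin, whereas the growing oocyte is arrested in prophase of the first meiotic division, does not replicate its DNA, and stores many transcripts of meiotic division proteins. Values are CPM, that is counts relative to the library total, scaled by TMM factors within a cell type unless stated otherwise. Log2 changes from the fits are given ± SE. Levels of different genes are not compared, since the counts carry no correction for length. In bulk libraries fewer cycling cells and less RNA per cycling cell cannot be told apart.

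The markers matched the labelled cell types. The summed CPM of 12 granulosa cell markers was 17181 to 33054 in granulosa cell libraries and 61.2 to 2440.0 in oocyte libraries, and 12 oocyte markers summed to 16093 to 27171 CPM in oocyte libraries and at most 14.7 CPM in granulosa cell libraries. Libraries that stood apart were blebbistatin replicates 1 and 2 of the granulosa cells, with 605 and 934 CPM of 8 macrophage markers against at most 10.5 CPM in the other granulosa cell libraries, and control replicates 1 and 2 of the oocytes, with 587 and 2440.0 CPM of granulosa cell markers. The granulosa marker sum of the granulosa cell libraries was also lower in all 4 blebbistatin libraries (17181 to 22313 CPM) than in all 4 control libraries (26262 to 33054 CPM), while dextran (23059 to 29763 CPM) overlapped both. Inha made up most of this sum, with a mean of 16599 CPM in control and 11761 CPM with blebbistatin. Among the other markers Fshr was also lower in all 4 blebbistatin libraries (8.02 to 52.4 against 56.9 to 77.4 CPM). Amhr2 (232 to 381 against 248 to 397 CPM) and Foxl2 (16.4 to 22.8 against 13.0 to 31.4 CPM) overlapped. Opposite to the granulosa marker sum, the 10 theca and stromal markers summed to 409 to 1595 CPM in the 4 blebbistatin libraries. That was above all 4 controls (23.2 to 378 CPM), with 21.5 to 367 CPM for dextran. Blebbistatin replicate 1 also had the fewest genes detected, 14538 against 18605 to 24297 in the other granulosa cell libraries, and differed most from its group, with a chi-square per gene of 124 to 137 against 43.2 to 70.00 among the other 3. The part of these differences in the member values, the blebbistatin changes of the S phase and G2/M genes included, was not tested beyond leaving the libraries out.

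In granulosa cells the replication genes lay lower in mean in both treatments than in control, without any single gene passing the test. With blebbistatin 13 of 14 S phase members had a negative log2 change (median −0.23, range −0.98 to 0.09), and with dextran 13 of 14 did (median −0.29, range −0.70 to 0.01). Over all 15370 genes tested, 45.4% of the changes were positive with blebbistatin (median −0.05) and 49.5% with dextran (median −0.00). Rrm1, which encodes the large subunit of ribonucleotide reductase, was the exception in both. The comparisons share the 4 control libraries, so these 2 counts are not independent of each other, and genes of one class vary together from library to library. Control replicate 2 was the highest of the 12 granulosa cell libraries for 14 of 14 S phase members. Without it the medians were −0.10 for blebbistatin (12 of 14 negative) and −0.17 for dextran (13 of 14 negative). Blebbistatin replicate 1, with few genes detected, was the lowest library for 4 S phase members, and without it the blebbistatin median was −0.18 (12 of 14 negative). The same median was −0.15 without blebbistatin replicate 4, which was the lowest library for 5 S phase members. It was −0.37 without blebbistatin replicate 2 and −0.43 (14 of 14 negative) without both libraries that held macrophage transcripts.

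No member passed an adjusted p of 0.05 in either comparison by edgeR, where 0.00651% of all genes did with blebbistatin and 0% with dextran. At an unadjusted p under 0.05 there were 6 members with blebbistatin, beside 10.4% of all genes, and 5 with dextran, beside 3.4% of all genes. DESeq2 called 2 members with blebbistatin (Ccnd1 and Ccne2) among 377 genes and 1 with dextran (Cenpa) among 42 genes, and limma voom called 0 members in each.

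Ccne2, one of the 2 E-type cyclins that activate CDK2 at the start of S phase, gave the S phase change of smallest p with blebbistatin. Levels of Ccne2 were 86.5, 139, 113 and 100.2 CPM in control, 34.05, 79.3, 70.7 and 42.6 CPM with blebbistatin and 70.96, 52.03, 94.2 and 84.8 CPM with dextran. All 4 blebbistatin libraries lay below all 4 controls, and it was the 1 member of 37 whose blebbistatin and control groups did not overlap, beside 6.6% of all genes (4.14% lower and 2.46% higher). The Ccne2 log2 change with blebbistatin was −0.95 ± 0.27 (SE), with an adjusted p of 0.247 by edgeR. With dextran its change was −0.54 ± 0.27, and dextran replicate 3 lay above control replicate 1.

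Rrm2, the small subunit of ribonucleotide reductase, whose level rises in S phase, came next. Rrm2 measured 384, 486, 393 and 391 CPM in control replicates 1 to 4, 193, 404, 251 and 226 CPM with blebbistatin and 336, 336, 406 and 288 CPM with dextran. Control replicate 2 stood high in its group and blebbistatin replicate 2 was above 3 of the 4 controls. The Rrm2 log2 change with blebbistatin was −0.62 ± 0.20 (SE), with an adjusted p of 0.280 by edgeR. Without blebbistatin replicate 2 Rrm2 passed the test (−0.87 ± 0.14, adjusted p = 0.0437 by edgeR) as the 1 member to do so, in a fit where 0.721% of all genes passed in place of 0.00651%. Its dextran change was −0.28 ± 0.20. Cdc6, a loading factor of the MCM helicase, had the largest S phase change with blebbistatin, −0.98 ± 0.43. The control libraries held 105, 143, 75.3 and 53.1 CPM of Cdc6, the blebbistatin libraries 20.1, 96.1, 30.9 and 43.8 CPM and the dextran libraries 51.7, 63.1, 67.3 and 78.9 CPM, in replicate order. The spread of Cdc6 was wide in blebbistatin and control, and its adjusted p by edgeR was 0.447.

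With dextran the lead S phase members were the cyclin E gene Ccne1 and the helicase subunit gene Mcm5. For Ccne1 the control replicates gave 37.6, 42.96, 32.4 and 28.3 CPM, those with blebbistatin 30.6, 42.6, 28.3 and 21.1 CPM and those with dextran 15.9, 22.3, 26.5 and 22.2 CPM. All 4 dextran libraries lay below all 4 control libraries for Ccne1. The Ccne1 log2 change with dextran was −0.70 ± 0.24 (SE), with an adjusted p of 1.00 by edgeR. Mcm5 stood at 191, 244, 152 and 174 CPM in control, 134, 215, 160.4 and 142 CPM with blebbistatin and 122, 110.4, 159.7 and 138 CPM with dextran, replicates 1 to 4 in turn. Dextran replicate 3 of Mcm5 lay within the control range and the other 3 dextran libraries below it. The Mcm5 log2 change with dextran was −0.52 ± 0.18 (SE), with an adjusted p of 1.00 by edgeR. Mcm4, another subunit of the helicase, had an unadjusted p of 0.0323 with dextran and a change of −0.33 ± 0.14.

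Mcm2 and Pcna, which encode a helicase subunit and the polymerase clamp, gave smaller differences. Mcm2 read 205, 264, 181 and 166 CPM in the 4 control libraries, 168, 247, 158 and 142 CPM in those with blebbistatin and 151, 169, 181 and 164 CPM in those with dextran. Levels of Pcna were 226, 282, 239 and 202 CPM in control, 207, 274, 194 and 161 CPM with blebbistatin and 212, 211, 203 and 209.5 CPM with dextran. The dextran libraries of Pcna were close to each other, with a coefficient of variation of 1.89%, and overlapped the controls. Changes of Mcm2 were −0.19 ± 0.18 with blebbistatin and −0.30 ± 0.18 with dextran. For Pcna they were −0.19 ± 0.15 and −0.18 ± 0.15. The remaining S phase members (Mcm3, Mcm6, Mcm7, Cdt1 and Tyms) lay between −0.31 and −0.03 with blebbistatin and between −0.37 and −0.15 with dextran. With blebbistatin Ccne1, Mcm4 and Mcm5 stood at −0.20, −0.23 and −0.22.

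Of 42 other replication genes, such as origin, polymerase and clamp loader subunits, 0 passed the test in either comparison. Their changes were negative for 34 of 42 with blebbistatin (median −0.19) and for 40 of 42 with dextran (median −0.23). Both counts rest on the same control libraries. Control replicate 2 again stood highest of the granulosa cell libraries in the mean log2(CPM + 1) of this list. Its mean was 6.60, against 6.12 to 6.32 in the other controls. Clspn, which encodes the checkpoint adaptor claspin, had a blebbistatin change of −0.65 ± 0.20, and Dut, the dUTPase, −0.60 ± 0.19. With dextran Pola2, a subunit of DNA polymerase alpha, had −0.43 ± 0.17 and Rfc2, of the clamp loader, −0.35 ± 0.15. On the positive side stood Dbf4, the activator of the CDC7 kinase, at 0.41 ± 0.21 with blebbistatin and 0.17 ± 0.21 with dextran.

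**Figure D1:**
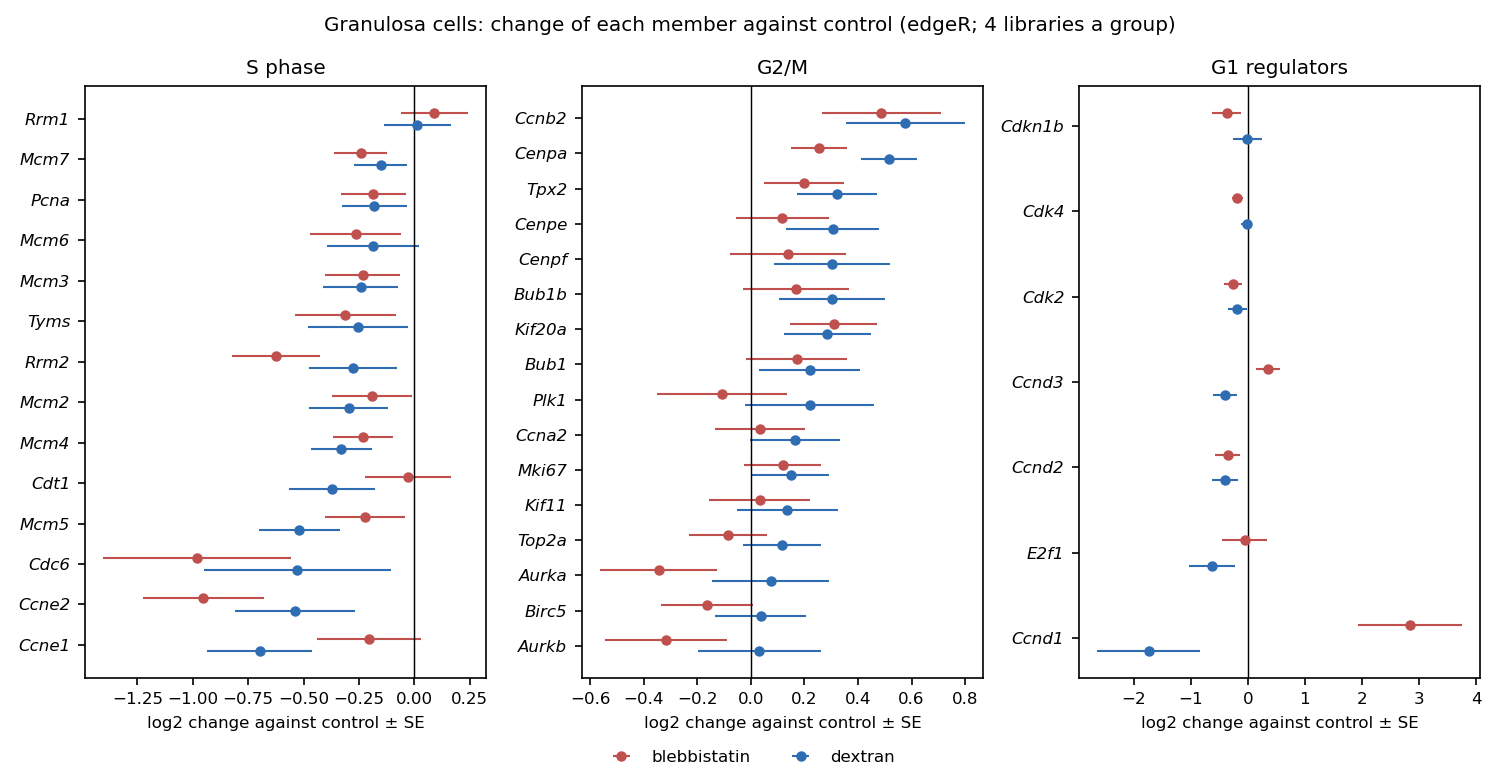
Log2 change against control (horizontal axis, with standard error) of the 14 S phase, 16 G2/M and 7 G1 regulator genes in granulosa cells, for blebbistatin and dextran, from fits over 4 libraries a group. S phase genes lie left of 0 in 13 of 14 cases for each treatment and G2/M genes lie right of 0 in 16 of 16 cases for dextran and 11 of 16 for blebbistatin; no gene passed the adjusted threshold.

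The G2/M genes lay on the other side of control with dextran. Their changes were positive for 16 of 16 (median 0.22, range 0.03 to 0.58), and with blebbistatin for 11 of 16 (median 0.12, range −0.34 to 0.49). Dextran replicate 1 was the highest of the 12 libraries for 14 of 16 G2/M members. Without it 12 of 16 were positive for dextran with a median of 0.12, and without dextran replicate 4, the lowest library for 4 members, the median was 0.35 (16 of 16). With limma voom 15 of 16 were positive. The blebbistatin median was 0.05 without blebbistatin replicate 3 (9 of 16 positive) and 0.05 without control replicate 4. Blebbistatin replicate 1 was the lowest library for 5 G2/M members, and the median without it was 0.14 (11 of 16 positive).

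Cenpa, the histone H3 variant that marks centromeres and is made in G2, had the smallest p of the members with dextran. Cenpa measured 128, 135, 115 and 116 CPM in control replicates 1 to 4, 158, 143, 153 and 135 CPM with blebbistatin and 206, 177, 168 and 154 CPM with dextran. All 4 dextran libraries lay above all 4 controls, and the blebbistatin libraries overlapped both groups. The Cenpa log2 change with dextran was 0.51 ± 0.10 (SE), with an adjusted p of 0.479 by edgeR. The Cenpa log2 change with blebbistatin was 0.25 ± 0.10 (SE), with an adjusted p of 0.422 by edgeR.

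Ccnb2, a B-type cyclin that drives entry into mitosis, also had dextran and control libraries apart. The control libraries held 182, 243, 195 and 170.4 CPM of Ccnb2, the blebbistatin libraries 161, 259.6, 306 and 380.3 CPM and the dextran libraries 369, 285, 274 and 250.4 CPM, in replicate order. Blebbistatin replicate 1 was the lowest of the 12 and blebbistatin replicate 4 the highest. The Ccnb2 log2 change with dextran was 0.58 ± 0.22 (SE), with an adjusted p of 1.00 by edgeR. With blebbistatin the change was 0.49 ± 0.22, and 0.81 ± 0.18 without blebbistatin replicates 1 and 2. With dextran 4 of 37 members had groups that did not overlap (Ccnb2 and Cenpa above control, Ccne1 and E2f1 below), beside 4.71% of all genes (2.67% above and 2.04% below).

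Mki67, the proliferation antigen that coats mitotic chromosomes, and Top2a, the topoisomerase that untangles them, differed less. For Mki67 the control replicates gave 189, 151, 156 and 139.8 CPM, those with blebbistatin 166, 182, 184 and 157 CPM and those with dextran 186, 184, 207 and 127 CPM. Top2a stood at 513, 589.6, 505 and 458 CPM in control, 468, 566, 508 and 406 CPM with blebbistatin and 682, 561, 578 and 417 CPM with dextran, replicates 1 to 4 in turn. For both genes the 3 groups overlapped, with dextran replicate 4 the lowest dextran library. The dextran changes were 0.15 ± 0.14 for Mki67 and 0.12 ± 0.15 for Top2a, against 0.12 ± 0.14 and −0.08 ± 0.15 with blebbistatin.

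Plk1, the kinase that matures the spindle poles, was spread widely in each treated group. Plk1 read 146, 143, 109.7 and 103 CPM in the 4 control libraries, 158, 125, 105 and 76.7 CPM in those with blebbistatin and 202, 149, 133 and 99.5 CPM in those with dextran. Dextran ran from the lowest to the highest values of controls and beyond, and changes were 0.22 ± 0.24 with dextran and −0.11 ± 0.24 with blebbistatin. Aurora kinases and survivin (Aurka, Aurkb and Birc5) had the smallest dextran changes among G2/M members (0.07, 0.03 and 0.04) and negative ones with blebbistatin (−0.34, −0.32 and −0.16). Kinetochore, checkpoint and spindle genes lay higher with dextran, at 0.31 for Cenpe, 0.30 for Cenpf, 0.30 for Bub1b, 0.22 for Bub1, 0.32 for Tpx2, 0.29 for Kif20a and 0.14 for Kif11. None of these had an unadjusted p under 0.05 by edgeR.

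Among 44 other G2/M genes 0 passed in either comparison. With dextran 36 of 44 were positive (median 0.14) and with blebbistatin 25 of 44 (median 0.05). Ccnb1, the main mitotic B-type cyclin, had 0.41 ± 0.10 with dextran, and Tacc3, which stabilises spindle microtubules, 0.29 ± 0.11 with dextran and 0.39 ± 0.11 with blebbistatin. On the negative side Cenpk had −0.30 ± 0.20 with dextran and Ncapg −0.31 ± 0.14 with blebbistatin. Cks1b, a CDK subunit, had −0.14 ± 0.14 with dextran and −0.24 ± 0.14 with blebbistatin.

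Within a library the mean log2(CPM + 1) of the S phase members minus that of the G2/M members does not depend on the library's scaling, apart from the added 1. This measure was chosen after the values had been seen and carries no test. In granulosa cells it was 0.28, 0.55, 0.32 and 0.25 in control replicates 1 to 4, −0.04, 0.34, −0.27 and −0.21 with blebbistatin and −0.64, −0.27, −0.00 and 0.23 with dextran. Every dextran library lay below every control library, narrowly for dextran replicate 4, and 3 of the 4 blebbistatin libraries did, with replicate 2 inside the control range. In oocytes it ran from −0.65 to −0.28 over all 12 libraries, with the lowest and the highest both in control. The S phase mean was 7.52 ± 0.27 (SD, n = 4) in control, 7.17 ± 0.32 (SD, n = 4) with blebbistatin and 7.21 ± 0.12 (SD, n = 4) with dextran, and the G2/M mean 7.17 ± 0.15 (SD, n = 4), 7.22 ± 0.15 (SD, n = 4) and 7.38 ± 0.31 (SD, n = 4) in granulosa cells.

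**Figure D2:**
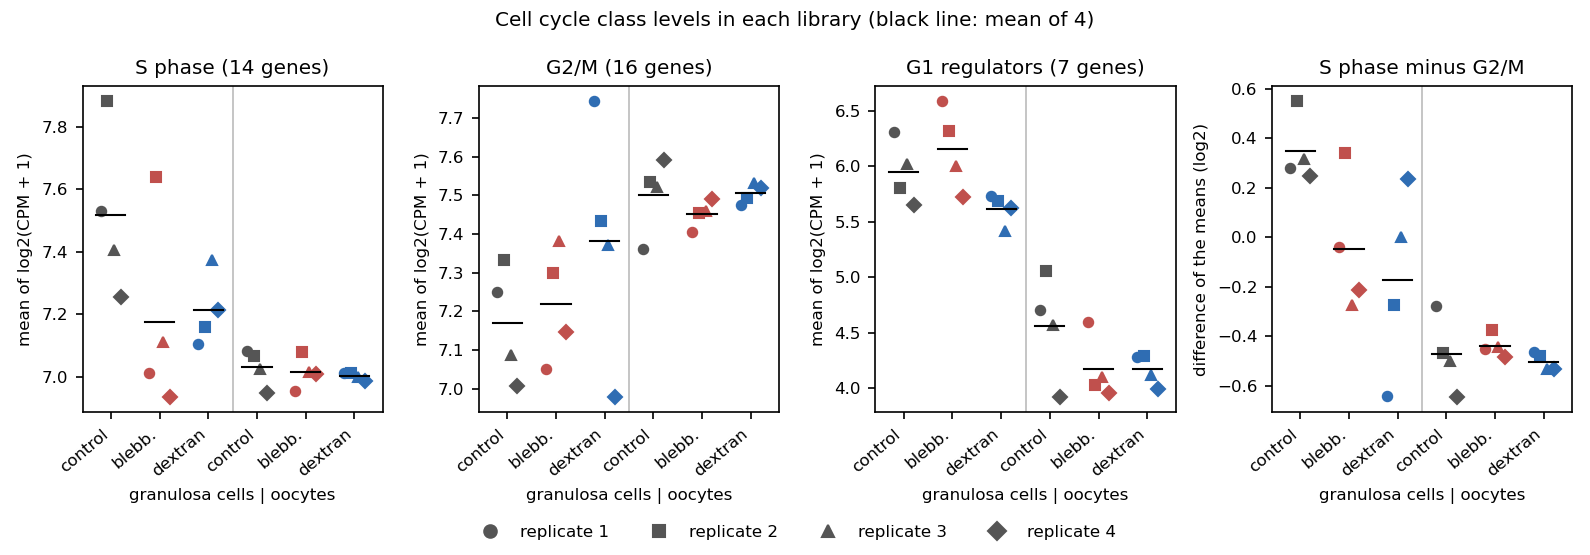
Mean of log2(CPM + 1) over the S phase, G2/M and G1 regulator genes in each of the 24 libraries, and the S phase mean minus the G2/M mean, by cell type and condition, with a marker for each replicate and a line at the mean of 4. In granulosa cells the difference is 0.25 to 0.55 in control and −0.64 to 0.23 with dextran, while oocyte libraries lie together between −0.65 and −0.28.

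The S phase and G2/M members also differed in the letters near their start sites. RefSeq promoter windows of 300 bases (build GRCm38.p6, 250 before and 50 after the start) were matched by symbol for 29 of 37 members. These were 12 of 14 in S phase, 12 of 16 in G2/M and 5 of 7 among the G1 regulators. Some members, such as Mcm7, had more than 1 window. A member was counted for a word when any of its windows held it, whereas the shares of all count single promoters. Words of the E2F site (TTTCCCGC, TTTCGCGC, TTTGCCGC or TTTGGCGC, either strand) were in 6 of 12 S phase promoters (Mcm3, Mcm5, Mcm6, Mcm7, Cdc6 and Cdt1), 0 of 12 G2/M promoters and 1 of 5 G1 promoters (Cdk2), beside 2.26% of all 32851 promoters. Words of the CHR, the cell cycle homology region (TTTGAA or TTCGAA, either strand), were in 10 of 12 G2/M promoters, 2 of 12 S phase promoters and 0 of 5 G1 promoters, beside 19.2% of all. The CCAAT box (CCAAT, either strand) was in 11 of 12 G2/M, 8 of 12 S phase and 3 of 5 G1 promoters, beside 37.4% of all. E2F and CHR words are the textbook marks of genes timed to S phase and to G2/M, so these counts describe how the classes are known to be built and not a response in these follicles. Part of each window is printed for the 2 S phase genes Mcm5 and Mcm6 and the 2 G2/M genes Ccnb2 and Cenpa, on the strand of the gene and 5′ to 3′, with E2F, CHR and CCAAT words in capitals. The first 2 carry E2F words and the last 2 a CHR word just after the start site.
Mcm5, chr8:75109349-75109497, + strand: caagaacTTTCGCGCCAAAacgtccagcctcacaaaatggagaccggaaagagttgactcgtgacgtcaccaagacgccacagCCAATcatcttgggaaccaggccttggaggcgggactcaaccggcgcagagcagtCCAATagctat
Mcm6, chr1:128359696-128359825, − strand: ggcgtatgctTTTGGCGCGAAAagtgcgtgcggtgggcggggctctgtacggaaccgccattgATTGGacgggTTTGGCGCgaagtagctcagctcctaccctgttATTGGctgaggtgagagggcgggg
Ccnb2, chr9:70421535-70421654, − strand: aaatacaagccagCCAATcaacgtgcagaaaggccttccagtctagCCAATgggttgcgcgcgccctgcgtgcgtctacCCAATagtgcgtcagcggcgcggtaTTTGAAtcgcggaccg
Cenpa, chr5:30666771-30666907, + strand: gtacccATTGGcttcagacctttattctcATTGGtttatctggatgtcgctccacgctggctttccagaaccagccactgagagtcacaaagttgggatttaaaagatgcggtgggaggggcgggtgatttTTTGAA
The E2F words TTTCGCGC and TTTGGCGC overlap in the distal part of Mcm5 (on opposite strands) and of Mcm6, and Mcm6 holds another E2F word nearer the start. Ccnb2 carries 3 CCAAT boxes ahead of the CHR word near its start and Cenpa 2, in the reversed form. The stretch of Mcm5 also carries 2 CCAAT boxes, so this word was not restricted to the G2/M genes. A match is a description of the letters, not of a bound site.

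The 3 D-type cyclins, which carry growth signals to CDK4, differed in direction in granulosa cells. Ccnd2, the granulosa cell cyclin, was lower in mean in both treatments. Levels of Ccnd2 were 1773, 1397, 1609 and 781 CPM in control, 1024, 990.2, 1224 and 1125 CPM with blebbistatin and 1315, 1157, 899 and 839 CPM with dextran. Control replicate 4 was the lowest of the 12 libraries, so the groups overlapped. Its changes were −0.35 ± 0.22 with blebbistatin and −0.40 ± 0.22 with dextran.

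Ccnd1 was low in most granulosa cell libraries and high in 3 of the 4 blebbistatin ones. Ccnd1 measured 12.8, 0.905, 3.25 and 1.56 CPM in control replicates 1 to 4, 73.4, 30.4, 25.9 and 3.12 CPM with blebbistatin and 1.20, 1.83, 0.894 and 1.61 CPM with dextran. The Ccnd1 log2 change with blebbistatin was 2.84 ± 0.91 (SE), with an adjusted p of 0.285 by edgeR. The 10 theca and stromal markers, such as collagen genes, summed to 1595, 409, 1111 and 425 CPM in blebbistatin replicates 1 to 4, 378, 23.2, 72.9 and 369 in control and 199, 367, 26.8 and 21.5 in dextran. The library with the highest Ccnd1 also had the highest stromal sum, while blebbistatin replicate 4 had a stromal sum like that of blebbistatin replicate 2 with little Ccnd1. The part of stromal transcripts in Ccnd1 was not tested. Control replicate 1 was the highest control for Ccnd1, and without it the change was 4.14 ± 0.91. Without blebbistatin replicates 1 and 2 its change was 1.66 ± 0.93.

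Ccnd3 was higher in mean with blebbistatin and lower with dextran. The control libraries held 45.2, 34.1, 38.3 and 25.8 CPM of Ccnd3, the blebbistatin libraries 59.7, 43.6, 40.9 and 38.9 CPM and the dextran libraries 29.8, 31.2, 21.3 and 26.6 CPM, in replicate order. The blebbistatin libraries lay above all dextran libraries and the controls overlapped both. Its changes were 0.35 ± 0.21 with blebbistatin and −0.40 ± 0.21 with dextran.

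The other G1 regulators were the kinases Cdk2 and Cdk4, the CDK inhibitor p27 (Cdkn1b) and the transcription factor E2f1. For Cdkn1b the control replicates gave 15.5, 13.9, 17.2 and 20.8 CPM, those with blebbistatin 13.5, 12.8, 8.95 and 16.6 CPM and those with dextran 19.2, 17.4, 12.3 and 17.8 CPM. Cdkn1b groups overlapped, with changes of −0.37 ± 0.25 and −0.01 ± 0.25. E2f1 stood at 9.62, 12.9, 10.2 and 8.94 CPM in control, 16.1, 13.4, 4.77 and 5.77 CPM with blebbistatin and 7.61, 5.85, 5.74 and 7.68 CPM with dextran, replicates 1 to 4 in turn. All 4 dextran libraries of E2f1 lay below all 4 controls, whereas blebbistatin had 2 libraries above and 2 below the control range. E2f1 had a dextran change of −0.63 ± 0.40 (adjusted p = 1.00 by edgeR). Cdk2 had −0.25 ± 0.16 with blebbistatin and −0.18 ± 0.16 with dextran, and Cdk4 −0.18 ± 0.09 and −0.02 ± 0.09. All 7 G1 regulators had negative dextran changes (median −0.40), those of Cdk4 and Cdkn1b near 0, and 5 of 7 had negative blebbistatin changes (median −0.18, and −0.30 without blebbistatin replicate 1). Of 32 other G1 regulators tested 0 passed, and 18 and 19 were negative with dextran and blebbistatin (medians −0.04 and −0.08). Among them Foxo1, a factor that restrains cycling, had −0.34 ± 0.09 with blebbistatin, and Cdkn2b, the p15 inhibitor, 3.33 ± 0.97. Cdkn2b was widely spread, at 39.9 ± 46.9 CPM (SD, n = 4) with blebbistatin and 3.96 ± 3.39 CPM (SD, n = 4) in control. Its adjusted p was 0.247 by edgeR.

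Blebbistatin and dextran were also compared directly in granulosa cells. No member passed, beside 0% of all genes, 3 had an unadjusted p under 0.05 beside 8.84%, and DESeq2 called Ccnd1 and Ccnd3 among 214 genes while limma voom called 0 members. Both D-type cyclins had groups that did not overlap, 2 of 37 members beside 5.62% of all genes (1.84% higher and 3.78% lower with blebbistatin). The Ccnd1 log2 difference, blebbistatin minus dextran, was 4.58 ± 1.00 (SE), with an adjusted p of 0.257 by edgeR. The Ccnd3 log2 difference, blebbistatin minus dextran, was 0.75 ± 0.21 (SE), with an adjusted p of 0.326 by edgeR. The Cenpa log2 difference, blebbistatin minus dextran, was −0.26 ± 0.10 (SE), with an adjusted p of 0.507 by edgeR. Ccne1 came next, at 0.49 ± 0.24. Of the G2/M members 15 of 16 were lower with blebbistatin than with dextran (median −0.15), the exception being Kif20a, where 44.7% of all genes were higher (median −0.05), and the S phase members divided 7 to 7 (median 0.00). The G2/M median was −0.03 without dextran replicate 1, −0.09 without blebbistatin replicate 1 and −0.29 without dextran replicate 4.

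**Figure D3:**
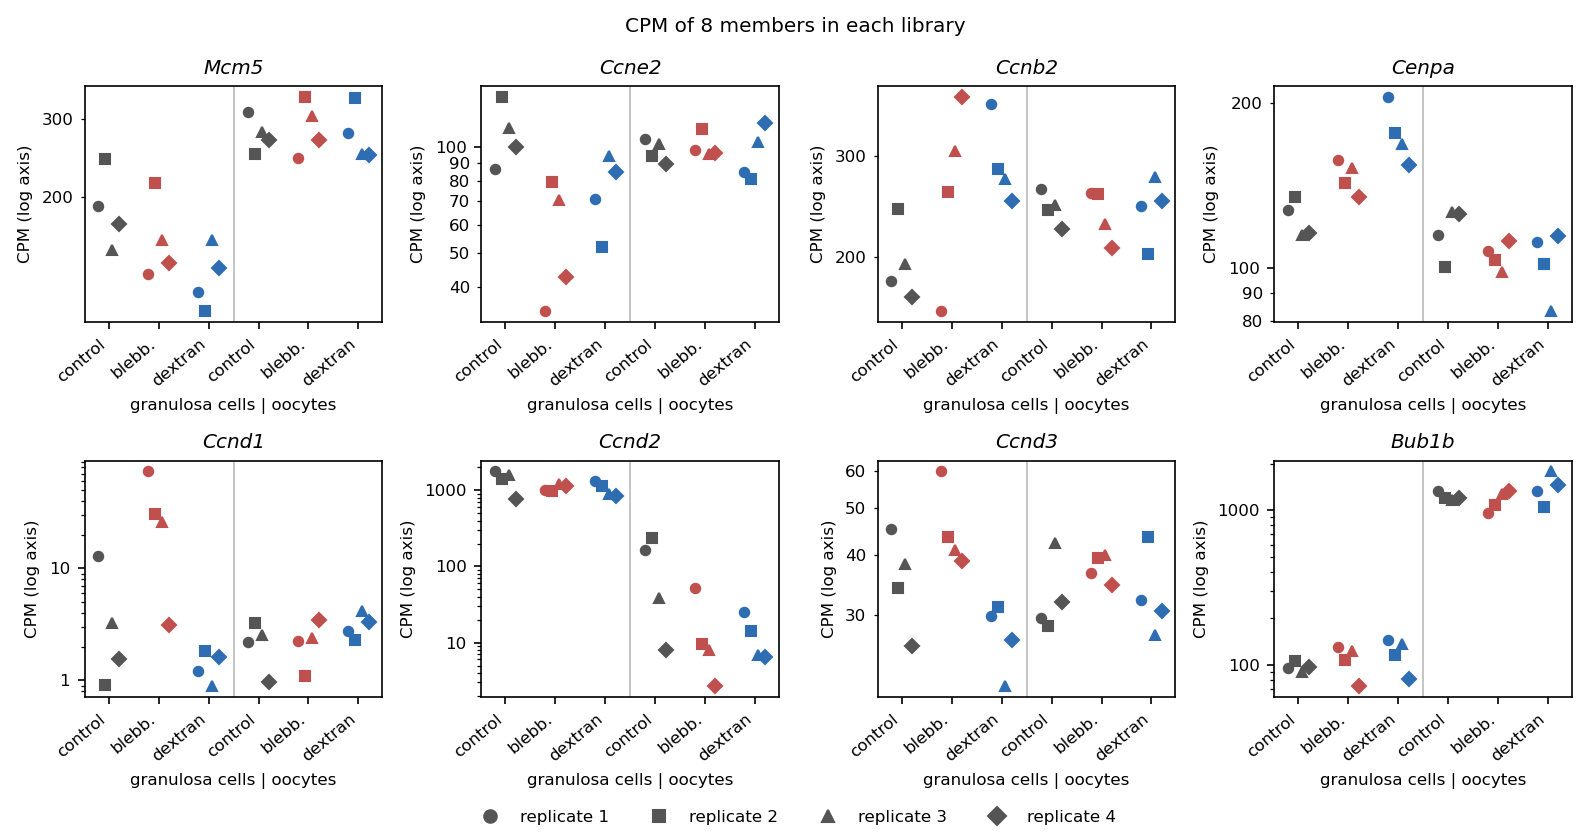
CPM (log axis) of Mcm5, Ccne2, Ccnb2, Cenpa, Ccnd1, Ccnd2, Ccnd3 and Bub1b in each library, by cell type and condition, with a marker shape for each replicate. Ccne2 is lower in all 4 blebbistatin than in all 4 control granulosa cell libraries, Cenpa is higher in all 4 dextran than in all 4 control ones, and Ccnd2 in oocytes is highest in control replicates 1 and 2.

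In oocytes most members were steadier between libraries and no class stood apart by treatment. The median coefficient of variation within a group was 10.2% for S phase members in oocytes and 18.1% in granulosa cells, and 10.8% and 17.8% for G2/M members, but 25.9% and 18.1% for G1 regulators. Medians of the treatment changes lay between −0.04 and 0.02 for the S phase and G2/M members in the comparisons with control. No member passed by edgeR with blebbistatin or dextran, or between them, beside 0% of all genes each. DESeq2 and limma voom also called 0 members, where DESeq2 called 0.0955%, 0.0239% and 0% of all genes. At an unadjusted p under 0.05 there was 1 member with blebbistatin (beside 4.1% of genes), 2 with dextran (beside 5.31%) and 0 between them (beside 4.07%). No member had groups that did not overlap, beside 2.61%, 2.39% and 2.77% of all genes.

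The members of smallest p in oocytes were Ccnd2 and Cdk4, which encode cyclin D2 and the G1 kinase it activates. Ccnd2 read 165, 240.0, 38.96 and 8.02 CPM in the 4 control libraries, 52.4, 9.45, 7.98 and 2.70 CPM in those with blebbistatin and 25.5, 14.4, 6.92 and 6.45 CPM in those with dextran. Levels of Cdk4 were 33.5, 88.3, 26.9 and 14.05 CPM in control, 31.8, 16.8, 22.8 and 20.7 CPM with blebbistatin and 17.7, 20.3, 16.99 and 17.3 CPM with dextran. Control replicates 1 and 2 were the highest libraries for both genes, and treated libraries overlapped the other controls. The Ccnd2 log2 change with blebbistatin was −2.63 ± 1.12 (SE), with an adjusted p of 1.00 by edgeR. The Ccnd2 log2 change with dextran was −3.09 ± 1.14 (SE), with an adjusted p of 0.878 by edgeR. For Cdk4 the changes were −0.82 ± 0.41 with blebbistatin and −1.17 ± 0.41 with dextran.

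In control, and in blebbistatin replicate 1, high granulosa cell marker sums went with high levels of both genes. They summed to 587, 2440.0, 116 and 78.7 CPM in control oocyte replicates 1 to 4, 391, 137, 137 and 88.3 with blebbistatin and 115, 61.2, 67.8 and 148 with dextran. Among the dextran libraries replicate 4 had the highest marker sum and the lowest Ccnd2, and replicate 2 the lowest marker sum and the highest Cdk4. Without control replicates 1 and 2 the Ccnd2 changes were −0.38 ± 1.08 with blebbistatin and −0.83 ± 1.07 with dextran. Those of Cdk4 were 0.16 ± 0.29 and −0.19 ± 0.29, so the blebbistatin change of Cdk4 reversed.

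**Figure D4:**
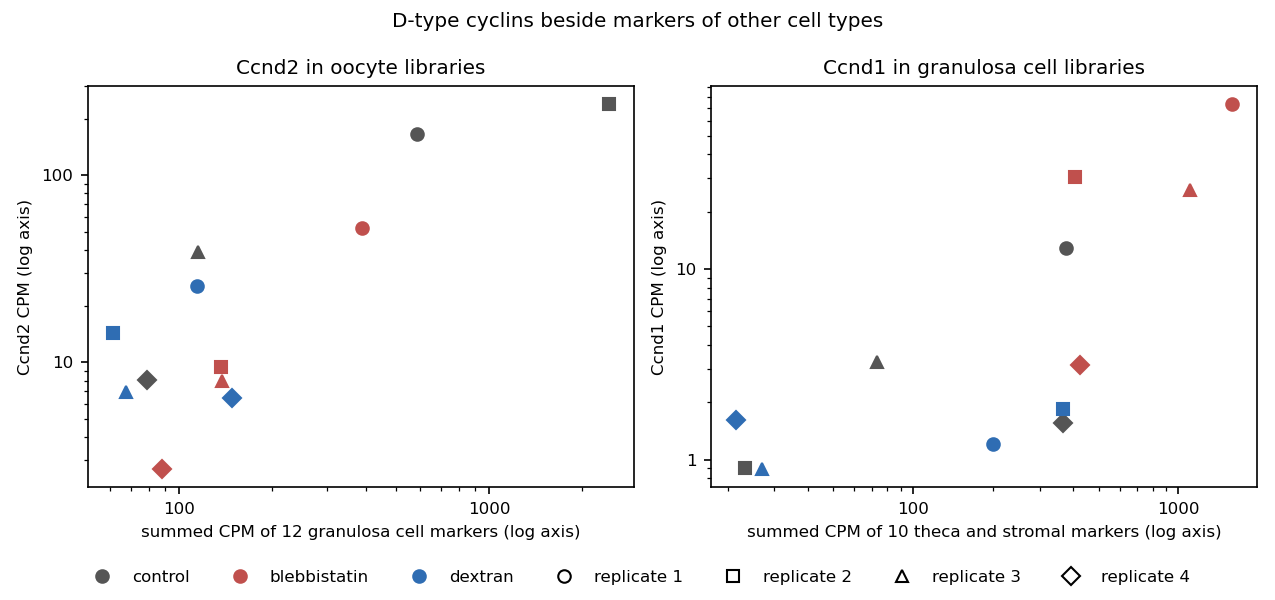
Left, Ccnd2 CPM against the summed CPM of 12 granulosa cell markers in the 12 oocyte libraries; right, Ccnd1 CPM against the summed CPM of 10 theca and stromal markers in the 12 granulosa cell libraries (log axes, colour for condition, shape for replicate). Control replicates 1 and 2 are highest on both axes among oocytes, and blebbistatin replicate 1 is highest on both axes among granulosa cells.

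The main S phase genes had overlapping oocyte groups. Mcm2 measured 258, 218, 212 and 216 CPM in control replicates 1 to 4, 224, 249.6, 248 and 217 CPM with blebbistatin and 248, 233, 324 and 195 CPM with dextran. The control libraries held 312, 251, 280.4 and 269 CPM of Mcm5, the blebbistatin libraries 245, 337, 305 and 269 CPM and the dextran libraries 279.6, 336, 250.5 and 249 CPM, in replicate order. For Pcna the control replicates gave 126, 141, 132 and 132 CPM, those with blebbistatin 122, 153, 131 and 127 CPM and those with dextran 122, 119.7, 138 and 138 CPM. Groups overlapped for all 3 genes, and their 6 changes against control lay between −0.03 and 0.14. Ccne2 stood at 106, 94.00, 102 and 89.3 CPM in control, 97.8, 113, 95.6 and 96.4 CPM with blebbistatin and 84.9, 80.8, 103 and 117 CPM with dextran, replicates 1 to 4 in turn. Ccne2 thus overlapped in oocytes, with 0.04 ± 0.13 and −0.02 ± 0.13. Mcm3, another helicase subunit, came after Ccnd2 by p with blebbistatin. Mcm3 read 75.5, 102, 89.6 and 78.5 CPM in the 4 control libraries, 66.6, 76.05, 76.9 and 68.7 CPM in those with blebbistatin and 65.7, 87.9, 71.9 and 78.3 CPM in those with dextran. Its change was −0.26 ± 0.13 with blebbistatin, and control replicate 2 was again the highest.

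The main G2/M genes overlapped in oocytes likewise. Levels of Mki67 were 18.4, 31.9, 35.1 and 56.1 CPM in control, 26.1, 42.6, 28.5 and 26.7 CPM with blebbistatin and 26.5, 36.9, 33.9 and 35.05 CPM with dextran. Top2a measured 62.6, 132, 64.6 and 61.3 CPM in control replicates 1 to 4, 79.3, 49.1, 73.6 and 85.9 CPM with blebbistatin and 58.01, 64.2, 83.5 and 62.2 CPM with dextran. Control replicate 4 was the highest library for Mki67 and control replicate 2 for Top2a. The control libraries held 263, 241, 247 and 224 CPM of Ccnb2, the blebbistatin libraries 259, 258, 229 and 208 CPM and the dextran libraries 246, 203, 275 and 251 CPM, in replicate order. For Plk1 the control replicates gave 464, 422, 481 and 505 CPM, those with blebbistatin 421, 466, 477 and 487 CPM and those with dextran 529, 538, 538 and 460.0 CPM. Plk1 had −0.02 ± 0.10 with blebbistatin and 0.14 ± 0.10 with dextran, and Ccnb2 −0.03 ± 0.11 and −0.00 ± 0.11. Cenpa stood at 115, 101, 127 and 125 CPM in control, 107, 103, 98.4 and 112 CPM with blebbistatin and 111, 102, 83.3 and 114 CPM with dextran, replicates 1 to 4 in turn. Cenpa, above control in granulosa cells with dextran, had −0.19 ± 0.12 in oocytes. Aurkb, the kinase of the chromosomal passenger complex, had −0.37 ± 0.20 with blebbistatin, and Kif20a, a cytokinesis kinesin, −0.18 ± 0.11 with dextran. Aurkb read 38.8, 49.1, 56.6 and 53.9 CPM in the 4 control libraries, 33.3, 36.7, 46.4 and 37.2 CPM in those with blebbistatin and 38.1, 64.3, 33.1 and 40.9 CPM in those with dextran. Levels of Kif20a were 274, 242, 307 and 311 CPM in control, 224, 258, 248 and 278 CPM with blebbistatin and 265, 245, 229 and 259.5 CPM with dextran. Dextran replicate 2 was the highest of the 12 for Aurkb, and blebbistatin replicate 1 was the lowest for Kif20a.

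Between the treatments the oocyte members of smallest p were Bub1b, Mcm4, Birc5 and Plk1. Bub1b measured 1326, 1194, 1168 and 1203 CPM in control replicates 1 to 4, 956, 1085, 1264 and 1321 CPM with blebbistatin and 1331, 1048, 1778 and 1444 CPM with dextran. The control libraries held 233, 232, 187 and 208 CPM of Mcm4, the blebbistatin libraries 169, 180.3, 184 and 244 CPM and the dextran libraries 229.9, 193, 261 and 240.5 CPM, in replicate order. For Birc5 the control replicates gave 538, 492, 533 and 573 CPM, those with blebbistatin 615, 619, 552 and 537 CPM and those with dextran 545, 475, 447 and 568 CPM. Each had overlapping groups. Blebbistatin minus dextran was −0.28 ± 0.14 for Bub1b, −0.25 ± 0.13 for Mcm4, 0.19 ± 0.10 for Birc5 and −0.16 ± 0.10 for Plk1.

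The remaining G1 regulators in oocytes showed no group apart. Ccnd1 stood at 2.21, 3.23, 2.53 and 0.965 CPM in control, 2.23, 1.10, 2.40 and 3.49 CPM with blebbistatin and 2.77, 2.29, 4.19 and 3.30 CPM with dextran, replicates 1 to 4 in turn. Ccnd1 stayed between 0.965 and 4.19 CPM in the 12 oocyte libraries. Ccnd3 read 29.5, 28.5, 42.3 and 31.8 CPM in the 4 control libraries, 36.7, 39.3, 39.96 and 34.6 CPM in those with blebbistatin and 32.2, 43.7, 27.1 and 30.5 CPM in those with dextran. Levels of Cdkn1b were 9.30, 10.3, 13.4 and 14.5 CPM in control, 14.1, 6.21, 9.34 and 11.1 CPM with blebbistatin and 8.32, 13.9, 15.8 and 7.60 CPM with dextran. Both overlapped, with control replicate 3 the highest control for Ccnd3 and control replicate 4 for Cdkn1b. E2f1 measured 24.7, 26.6, 33.3 and 32.4 CPM in control replicates 1 to 4, 34.9, 34.8, 23.5 and 28.3 CPM with blebbistatin and 37.2, 25.6, 28.7 and 28.4 CPM with dextran. E2f1, apart in granulosa cells with dextran, overlapped in oocytes, with 0.04 ± 0.18.

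Of the other replication, G2/M and G1 genes 0 passed in oocytes. The medians of the 42 replication and 44 G2/M genes lay between −0.03 and 0.01 against control. Mcm10, a replication initiation factor, had 0.30 ± 0.10 with blebbistatin and 0.21 ± 0.10 with dextran, and Prim1, the primase subunit, 0.34 ± 0.16 and 0.34 ± 0.16. Among 32 other G1 regulators 30 were negative with blebbistatin (median −0.26) and 22 with dextran (median −0.04), where 48.6% and 50.5% of all genes were positive. The mean log2(CPM + 1) of this list was 4.10 and 4.34 in control replicates 1 and 2, those rich in granulosa transcripts, but 3.84 and 3.74 in control replicates 3 and 4, beside 3.68 to 3.85 with blebbistatin and 3.80 to 3.88 with dextran. Without control replicates 1 and 2 only 20 of 33 were negative with blebbistatin (median −0.04) and 15 of 33 with dextran (median 0.02). Rb1, the retinoblastoma gene, had −0.45 ± 0.20 with blebbistatin.

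Whether a treatment change differed between the cell types was tested in 1 fit over all 24 libraries. No member passed for blebbistatin, beside 0.0485% of all 20601 genes, or for dextran, beside 0% of them. At an unadjusted p under 0.05 there were 6 members for blebbistatin (11.3% of genes) and 7 for dextran (9.28%). DESeq2 called 0 members for blebbistatin, beside 1.85% of all genes, and 1 for dextran, Cenpa, beside 1.18%. By limma voom 0 members were called for both, beside 0.0874% and 0% of all genes. Cenpa had the smallest p in each. The Cenpa difference of the dextran changes (oocyte minus granulosa) was −0.79 ± 0.16 (SE), with an adjusted p of 0.246 by edgeR. The Cenpa difference of the blebbistatin changes (oocyte minus granulosa) was −0.47 ± 0.16 (SE), with an adjusted p of 0.288 by edgeR. For Cenpa the dextran term also passed by edgeR without oocyte control replicate 4, in a fit where 0.425% of all genes passed. For dextran it was followed by Kif20a (−0.55 ± 0.19), Cdk4 (−1.32 ± 0.51) and Ccnd2 (−2.87 ± 1.12). For blebbistatin it was followed by Ccne2 (0.92 ± 0.32), Kif20a (−0.54 ± 0.19) and Ccnd1 (−2.89 ± 1.05). The dextran term was negative for 16 of 16 G2/M members (median −0.31) and positive for 10 of 14 S phase members (median 0.22), where 36.8% of all genes were positive (median −0.16). These medians moved with the scaling and with single libraries. They were −0.20 (14 of 16 negative) and 0.36 (13 of 14 positive) with DESeq2 size factors, where the median of all genes was −0.04. The G2/M median was nearest 0 without oocyte control replicate 2 (−0.10) and the S phase median without granulosa cell control replicate 2 (0.07, 8 of 14 positive).

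Between the cell types the members differed widely in control follicles. On the scale of a joint fit over 24 libraries, 31 of 37 members passed the test by edgeR, 18 higher and 13 lower in oocytes. The background was high, since 77.3% of all genes passed, 44.4% higher and 32.9% lower, so a count this high was near the share over all genes. Groups did not overlap for 30 of 37 members, beside 76.3% of all genes, and 21 of 37 differences were positive, beside 54.6%. The median of all genes was 0.41 on this scale, 0.48 with DESeq2 size factors and 0.06 with unscaled totals, and differences are to be read relative to that shift. Of the G2/M members 12 were higher and 4 lower in oocytes (median 0.71), of the S phase members 5 higher and 6 lower (median −0.14) and of the G1 regulators 1 higher and 3 lower (median −0.68). Without oocyte control replicates 1 and 2, the libraries with most granulosa transcripts, 27 members passed (without Ccnb2, Cenpa, Mcm2 and Tyms), beside 68.9% of all genes. With the replicate number as a block within each cell type 27 passed (without Ccnb2, Kif11, Pcna and Rrm2), beside 61.3% of all genes. Those blocks do not join oocyte with granulosa cell libraries. That fit takes the difference at a reference replicate of each cell type, so it cannot test a pairing for this comparison.

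The G2/M genes higher in oocytes were led by Bub1b, Aurka and Birc5. Bub1b encodes BUBR1, a spindle checkpoint kinase that oocytes also use in meiosis. On the joint scale Bub1b was 1580.1, 1525, 1289.7 and 1250.3 CPM in control oocyte replicates 1 to 4 and 87.3, 95.1, 81.4 and 88.3 CPM in control granulosa cell replicates. All 4 oocyte libraries were above all 4 granulosa cell libraries, with a log2 difference of 4.00 ± 0.22 (SE, adjusted p = 9.95e-13 by edgeR). Aurka, the spindle pole Aurora kinase, and Birc5, survivin, followed. Aurka gave 584, 555, 611 and 554 joint-scale CPM in oocytes and 139, 126, 94.7 and 92.9 CPM in granulosa cells. Oocytes held 641, 629, 589 and 596 joint-scale CPM of Birc5 and granulosa cells 125, 149, 116 and 107 CPM. Every oocyte library was above every granulosa cell library for both, with 2.35 ± 0.18 for Aurka and 2.30 ± 0.15 for Birc5. Plk1 had 2.24 ± 0.20.

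The 4 G2/M genes lower in oocytes included the proliferation markers Top2a and Mki67 and the kinase gene Aurkb. On the joint scale Top2a was 74.6, 168, 71.3 and 63.7 CPM in control oocyte replicates 1 to 4 and 466, 531, 459 and 414 CPM in control granulosa cell replicates. Mki67 gave 21.9, 40.7, 38.8 and 58.3 joint-scale CPM in oocytes and 172, 136, 141 and 126 CPM in granulosa cells. Oocytes held 46.2, 62.6, 62.5 and 56.03 joint-scale CPM of Aurkb and granulosa cells 118, 128, 109.9 and 112 CPM. The groups did not overlap for any of the 3. The differences were −2.31 ± 0.26 for Top2a, −1.85 ± 0.22 for Mki67 and −1.04 ± 0.22 for Aurkb. Control oocyte replicate 2, which had the most granulosa transcripts, was the highest oocyte library for Top2a. The Aurora kinases thus lay on opposite sides, Aurka higher and Aurkb lower in oocytes.

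**Figure D5:**
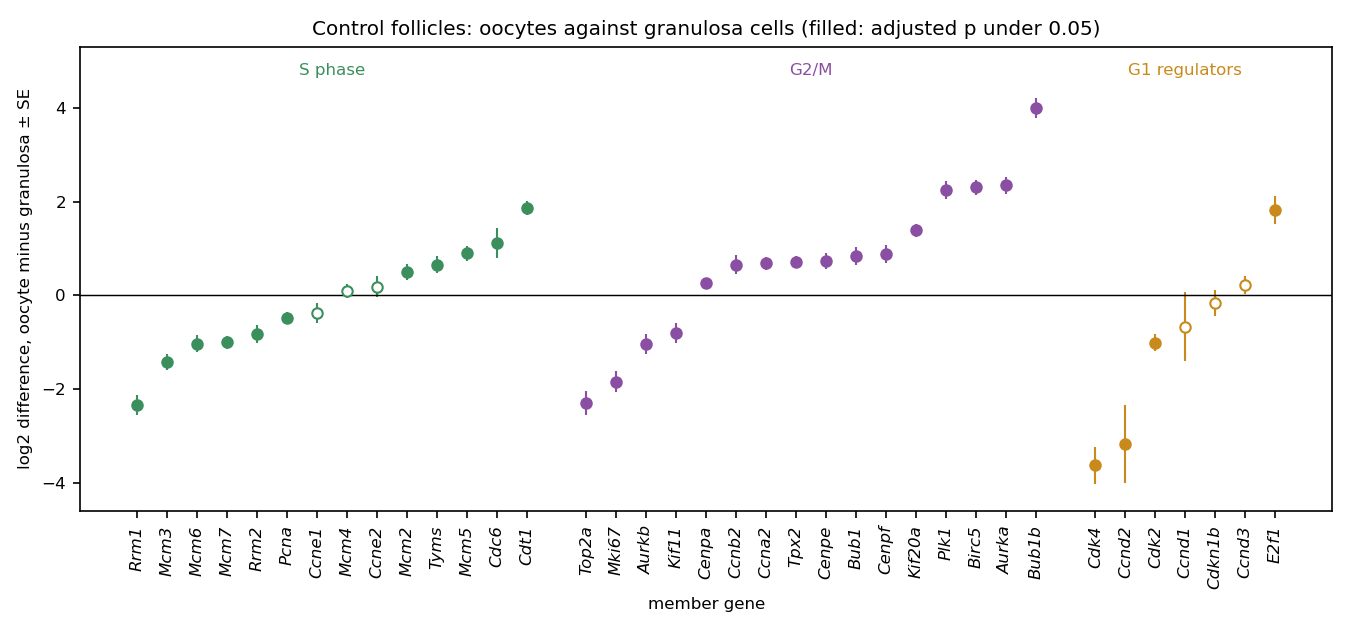
Log2 difference between control oocytes and control granulosa cells (vertical axis, with standard error) for each member, ordered within the S phase, G2/M and G1 regulator classes, with filled points for an adjusted p under 0.05. Bub1b has the highest value, 4.00, and Cdk4 the lowest, −3.63; G2/M genes divide 12 to 4 and S phase genes 7 to 7 about 0.

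Among replication genes the loading factors Cdt1 and Cdc6 and the helicase subunit Mcm5 were the highest in oocytes relative to granulosa cells. On the joint scale Cdt1 was 194, 171, 199.9 and 179.9 CPM in control oocyte replicates 1 to 4 and 57.5, 67.8, 38.7 and 40.6 CPM in control granulosa cell replicates. Cdc6 gave 194, 182, 197 and 167 joint-scale CPM in oocytes and 95.3, 129, 68.4 and 47.9 CPM in granulosa cells. Oocytes held 372, 319.9, 309.6 and 280.0 joint-scale CPM of Mcm5 and granulosa cells 174, 219.5, 138 and 157 CPM. The groups did not overlap. The differences were 1.86 ± 0.16 for Cdt1, 1.12 ± 0.33 for Cdc6 and 0.90 ± 0.16 for Mcm5. Rrm1 and the helicase subunits Mcm3 and Mcm6 were the lowest. On the joint scale Rrm1 was 84.7, 127, 64.9 and 49.3 CPM in control oocyte replicates 1 to 4 and 407, 517, 399 and 337 CPM in control granulosa cell replicates. Mcm3 gave 90.02, 131, 98.96 and 81.6 joint-scale CPM in oocytes and 275, 344, 251 and 207 CPM in granulosa cells. Oocytes held 253, 285, 243 and 208 joint-scale CPM of Mcm6 and granulosa cells 461, 639, 449 and 479 CPM. Oocyte libraries lay below granulosa cell libraries for all 3, with −2.35 ± 0.22 for Rrm1, −1.42 ± 0.16 for Mcm3 and −1.04 ± 0.18 for Mcm6. The 6 genes of the MCM helicase did not differ as a unit, since Mcm2 (0.50 ± 0.17) and Mcm5 were higher, Mcm3, Mcm6 and Mcm7 lower, and Mcm4 did not pass (0.09 ± 0.15). The Mcm2 difference was not stable. It did not pass with unscaled totals, when 28 members passed in all, beside 78.1% of all genes. Nor did it pass without both oocyte controls rich in granulosa transcripts. The same held without any 1 of granulosa cell control replicates 1 and 3, blebbistatin replicate 3 and dextran replicates 1 to 4. It held too without any 1 of oocyte control replicate 2 and oocyte blebbistatin replicates 1 and 4.

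Of the G1 regulators, E2f1 was higher in oocytes and Cdk4, Ccnd2 and Cdk2 were lower. On the joint scale E2f1 was 29.4, 33.96, 36.8 and 33.7 CPM in control oocyte replicates 1 to 4 and 8.75, 11.6, 9.26 and 8.07 CPM in control granulosa cell replicates. E2f1 in every oocyte library exceeded every granulosa cell library. Cdk4 gave 39.9, 113, 29.7 and 14.6 joint-scale CPM in oocytes and 636, 614, 610.3 and 579 CPM in granulosa cells. Oocytes held 197, 306, 43.01 and 8.34 joint-scale CPM of Ccnd2 and granulosa cells 1612, 1259, 1459.7 and 705 CPM. On the joint scale Cdk2 was 64.7, 66.6, 54.2 and 40.7 CPM in control oocyte replicates 1 to 4 and 126, 117, 116 and 95.5 CPM in control granulosa cell replicates. Groups did not overlap for any of the 4. The differences were 1.83 ± 0.30 for E2f1, −3.63 ± 0.40 for Cdk4, −3.18 ± 0.84 for Ccnd2 and −1.01 ± 0.18 for Cdk2. Ccnd2 and Cdk4 were highest in the 2 oocyte controls rich in granulosa transcripts, and without these their differences were −5.64 ± 1.04 and −4.78 ± 0.29. Ccnd1, Ccnd3, Cdkn1b, Ccne1, Ccne2 and Mcm4 did not pass. Of these, Ccne1 passed with unscaled totals and without both granulosa cell blebbistatin libraries that held macrophage transcripts. It also passed without any 1 of granulosa cell blebbistatin replicates 1, 2 and 4, granulosa cell dextran replicate 1 and oocyte blebbistatin replicate 1. Cenpa was close to the threshold, at 0.26 ± 0.11 (adjusted p = 0.0401 by edgeR), and its sign turned with unscaled totals (−0.079). Cenpa also did not pass without a count filter, with the filter of 5 CPM, or when any 1 library was left out other than granulosa cell control replicate 2, oocyte blebbistatin replicates 2 and 3 and oocyte dextran replicates 1 to 3.

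Other genes of these pathways were counted on the same joint scale. Of 44 other G2/M genes 33 were higher and 5 lower in oocytes (median 1.02), of 42 other replication genes 23 and 8 (median 0.65) and of 33 other G1 regulators 8 and 14 (median −0.65), beside 44.4% of all genes higher and 32.9% lower (median 0.41). Tacc3 (3.78 ± 0.13) and Ccnb1 (3.12 ± 0.12) were higher in oocytes, and the condensin genes Ncapd2 (−2.52 ± 0.29) and Smc2 (−1.88 ± 0.26) lower. Of the replication genes Orc5, of the origin recognition complex (3.74 ± 0.17), and Dnmt1, the maintenance DNA methyltransferase that oocytes store (3.50 ± 0.22), were higher, and the clamp loader gene Rfc4 (−1.76 ± 0.20) and the ligase gene Lig1 (−1.52 ± 0.18) lower. E2f5 (4.09 ± 0.26) and Cdk7 (2.00 ± 0.13) were higher, and Ccng1 (−3.99 ± 0.49) and Foxo1 (−1.42 ± 0.19) lower.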

How the data were processed

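Estimated counts per gene, named as salmon output per the labels, were deposited by the authors as 1 table per cell type with 78298 genes, and build GRCm39 is named in the submitters' processing notes. Quantifier settings, annotation, strandedness and read filters were not given in the sources used here. Libraries were amplified with 15 PCR cycles and no molecular identifiers are mentioned, so counting error covers counts only. The estimated counts were rounded to whole numbers. Granulosa cell and oocyte libraries (12 each) were fitted separately and, for contrasts between cell types, together (24), with edgeR 4.0.16 (R 4.3.3): filterByExpr, TMM scaling, robust quasi-likelihood tests and Benjamini-Hochberg adjustment over all genes tested (15370, 16749 and 20601), threshold 0.05. Alternatives were DESeq2 1.42.0, limma 3.58.1 voom, other scalings and filters (none, or at least 5 CPM in 4 libraries), the replicate number as a block, and leaving out libraries. The edgeR and limma voom fits were checked on simulated data with known changes, in which each gene varied independently. The simulation held no shifts shared by genes of a library. DESeq2 was run on the same data, but no limit was set for its false calls.

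No 2 replicates of a group agreed within sampling noise (the smallest chi-square per gene was 12.4). The members and the comparison lists were chosen with earlier results of these data known. Values in every library were given for 13 anchor genes (Mcm2, Mcm5, Pcna, Ccne2, Mki67, Top2a, Ccnb2, Plk1, Ccnd1, Ccnd2, Ccnd3, Cdkn1b and E2f1), for the members that passed in a treatment comparison or, where fewer than 4 passed, the 4 of smallest unadjusted p, and for the 3 largest differences per class and direction between cell types. Of the other lists up to 2 genes per direction were eligible. Genes given beyond this rule (Cdc6, Mcm4 and the remaining members) were added after their values were seen. Promoter sequences came from RefSeq, build GRCm38.p6, and were matched by symbol.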

Additional observations from a re-analysis of the deposited data

Results flagged for a closer look

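Within a group of 4 libraries, 13 of 222 member levels (5.86%) had 1 library whose gap to its nearest neighbour took more of the group's range than Dixon's 95% critical value. Chance sets apart about 1 in 20 such groups, so this share is near what chance gives. No cause was tested for any of them.

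In granulosa cells control replicate 2 stood high for 2 S phase genes, Mcm6 at 709 CPM (the others 495 to 530.2 CPM) and Rrm2 at 486 CPM (384 to 393 CPM). Blebbistatin replicate 1 stood low for the checkpoint kinase gene Bub1, at 73.3 CPM (129 to 131 CPM).

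In control oocytes replicate 2, the library with the most granulosa cell transcripts, stood high for Top2a at 132 CPM (61.3 to 64.6 CPM) and Bub1 at 176 CPM (131 to 135 CPM), and low for the thymidylate synthase gene Tyms at 136 CPM (151 to 153 CPM). Control replicate 1 stood high for Mcm2, at 258 CPM (212 to 218 CPM).

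Among oocytes with blebbistatin, replicate 2 stood high for Ccne2 at 113 CPM (95.6 to 97.8 CPM), Cdt1 at 209.5 CPM (170.2 to 175 CPM) and Mki67 at 42.6 CPM (26.1 to 28.5 CPM). Replicate 1 stood high for the kinetochore gene Cenpf at 184 CPM (144 to 149 CPM) and for Ccnd2 at 52.4 CPM (2.70 to 9.45 CPM), and its granulosa marker sum, 391 CPM, was the highest of that group. Among oocytes with dextran, replicate 4 stood low for Plk1 at 460.0 CPM (529 to 538 CPM).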

How the results depend on the processing

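Of the counts of called members and the class mean levels recomputed under the alternatives, 356 were the same and 7 moved. A count was the same when equal or within a set ratio. A treatment difference of a class level, or a class median, was the same when it shifted by less than the pooled SD between libraries. A difference smaller than that SD could therefore vanish and still be the same. The number of members past the threshold by edgeR was 0 in each granulosa cell comparison. With DESeq2 it was 2 for blebbistatin against control, beside 2.45% of all genes, and 1 for dextran against control, beside 0.273%. For blebbistatin against dextran it was 2, beside 1.39%. Leaving out 1 library at a time gave 0 to 1 for blebbistatin against control (1, Rrm2, without blebbistatin replicate 2, beside 0.721% of all genes). For the dextran difference between cell types the number was 1 with DESeq2, beside 1.18% of all genes. When 1 library was left out it was 0 to 1 (1 without oocyte control replicate 4, beside 0.425%). Of single members' values and class medians together, 1820 were the same, 42 were weaker, 9 stronger, 2 moved and 2 reversed. For a member, weaker and stronger mean that its call at the threshold was lost or gained. The 2 that moved were class medians. The reversed ones, from alternatives chosen after seeing the data, were Cdk4 in oocytes with blebbistatin, 0.16 without both control libraries rich in granulosa transcripts, and Cenpa between cell types, a log2 difference of −0.079 with unscaled totals. The causes were not tested.

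The labels do not say whether replicate numbers mark a shared origin, and for that reason the main fits did not pair the libraries. Deviations of same-numbered libraries correlated at −0.23 to 0.38 in granulosa cells and −0.21 to 0.26 in oocytes, over 0.1 in 4 of 12 pairs each (mean 0.063 and 0.051, against −0.021 and −0.017 for other numbers), and 8 and 6 of 12 libraries correlated best with their own number. Most libraries that a given library could match carried another number, so 8 and 6 own-number matches were more than an even draw gives. The mean correlations were small, and whether some numbers mark a shared origin stays unsettled. With the replicate block, set within each cell type, 1 member (Cenpa) passed for the dextran difference between cell types, beside 0.165% of all genes. Between control cell types 27 passed in place of 31, beside 61.3% of all genes in place of 77.3%. That last fit takes the difference at a reference replicate of each cell type, so it cannot test a pairing. In the other comparisons 0 passed.

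Each group had 4 libraries of pooled granulosa cells or of 1 to 2 oocytes. Ccnd1 had the fewest counts of the members. The follicles' origin by animal is not given, and the control medium's solvent is not stated.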
